A study of Equus caballus with 12 samples.

Results

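The miRNAs eca-miR-885-5p, eca-miR-372, eca-miR-383 and eca-miR-2114 were described across the liver, heart and lung of the horse. They were chosen by name, because their measured values in the deposited table were high in liver and at or near 0 in the other tissues. The table has 629 entries, 294 of them named as known horse miRNAs, and the 4 are among these. The choice used the liver levels and the near absence elsewhere, so every value of liver against heart or lung is given as a description, with no test.

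Small RNA was sequenced from the right lobe of the liver, the left heart ventricle and the right lung, in its caudal lobe, of 4 healthy cold-blooded stallions aged 1 to 2 years, sampled at slaughter. There was 1 library per tissue and horse, 12 in all, and the horses are called 27, 30, 32 and 34 as in the sample titles. Each value is a normalized count, the reads under a name divided by a size factor of the library. Names with fewer than 6 reads, the authors' minimum, are listed at 0, so up to 5 reads may lie behind such a value. The tissues were whole pieces, in which fewer cells of a type and less RNA per cell cannot be told apart.

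The libraries held 3066869 to 8595569 reads in liver, 8113895 to 9355513 in heart and 3536536 to 7560746 in lung, with the fewest in the liver of horse 27. Marker miRNAs fitted the tissue labels. The summed level of 5 hepatocyte miRNAs was 1453054 to 1969291 in liver, 52572 to 166241 in heart and 69301 to 295125 in lung. The 6 striated muscle miRNAs summed to 1511 to 6447 in liver, 5460419 to 8413935 in heart and 8693 to 12572 in lung. Among them, miR-208b was at 1741 to 2100.4 in the hearts and at 0 in every liver and lung. miR-208a was above 0 in 1 library only, a heart. The 9 lung epithelial miRNAs summed to 5446 to 7500 in liver, 334 to 1374 in heart and 85446 to 121838 in lung.

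A miRNA is a short RNA cut from a hairpin precursor, and in animals it guides the silencing of mRNAs that pair with its bases 2 to 8, the seed. Liver is dominated by one such RNA, miR-122, which acts in lipid metabolism. In humans, miR-885-5p is known from liver and as a serum marker of liver injury, and miR-372 belongs to the miR-371/miR-373 cluster of embryonic stem cells and germ cell tumors. miR-383 is known in humans as a miRNA that is often reduced in tumors, among them liver cancer. In the RefSeq annotation of the horse assembly TB-T2T, MIR885 lies inside the span of ATP2B2, which encodes a plasma membrane calcium pump. MIR383 lies inside SGCZ, which encodes zeta-sarcoglycan, and MIR2114 inside LOC106781395. MIR372 stands next to MIR371 and NLRP12, which encodes a regulator of inflammatory signaling, which is why miR-371-5p was followed as well.

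The table names 335 entries by their sequence alone. Of these, 5 shared the pattern of the 4 miRNAs in its strict form, with a value above 0 in all 4 livers and 0 in every heart and lung. They are shown because they are the liver-only small RNAs whose sequence the data give, with bases 2 to 8 in capitals:
entry of 23 nt, highest in horse 27: aAAGUGCUuucauuuuguguguc
second entry of 23 nt: cUGCCCUGgacugugccugcagg
entry of 19 nt: uGGAGUGUgacaguggugc
entry of 22 nt: uGGCCUGGgaaaacgaauccua
entry of 20 nt: uGGGGAGUgacaaugguguu
No 2 of them had the same bases 2 to 8, and none shared these bases with another entry named by sequence. They were not compared with the sequences of the named miRNAs. Whether any of them is a variant of an abundant liver miRNA such as miR-122 was not tested. Their liver levels ran from 19.1 ± 10.9 normalized counts for the entry of 22 nt to 497 ± 109.6 for the entry of 20 nt (SD, n = 4 horses), so the most abundant of them lay within the range of the 4 named miRNAs.

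miR-885-5p had the highest liver mean of the 4 and was the only one listed above 0 in every heart. It had 660.4, 460.2, 856 and 494 normalized counts in the livers of horses 27, 30, 32 and 34, against 11.2, 10.4, 12.3 and 11.8 in their hearts and 0 in all 4 lungs. The lowest liver lay far above the highest heart. The means were 618 ± 181 in liver and 11.4 ± 0.81 in heart (SD, n = 4 each), a 54.1-fold difference that ran from 41.9-fold to 69.6-fold within horses. Against lung, set at the limit of 5 reads per library, liver was at least 152-fold higher. The reads behind these values were 357, 572, 1165 and 748 in liver and 9, 7, 11 and 7 in heart.

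miR-372 was above 0 in liver only. It had 932, 257, 195 and 169.7 normalized counts in the livers of horses 27, 30, 32 and 34, against 0 in all 4 hearts and all 4 lungs. Horse 27 stood apart from the others, whose livers lay close together. The liver mean of 388 ± 365 (SD, n = 4) therefore rests on that library, and it was 207 without it. The library was also the shallowest, and the values rested on 504 reads there and on 319, 265 and 257 in the other livers. By the means, liver was at least 56.2-fold higher than heart and at least 95.4-fold higher than lung, and without horse 27 among the livers at least 29.9-fold and 50.9-fold. Within horses, the lowest of these bounds was 20.2-fold against heart and 30.002-fold against lung.

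miR-383 was the least abundant of the 4 and also above 0 in liver only. It had 235, 68.4, 194 and 116 normalized counts in the livers of horses 27, 30, 32 and 34, against 0 in all hearts and lungs. Horse 27 was highest and horse 30 lowest. The liver mean was 153 ± 75.0 (SD, n = 4), on 127, 85, 264 and 176 reads, and liver was at least 22.2-fold higher than heart and at least 37.7-fold higher than lung. With these counts, a level in heart of up to 10.9% of that in liver could have been missed in horse 30, against 2.65% in horse 27.

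miR-2114 had reads in all tissues, but outside liver in 3 libraries only. It had 313, 391, 600.0 and 477 normalized counts in the livers of horses 27, 30, 32 and 34, against 0, 8.92, 23.5 and 0 in their hearts and 0, 3.71, 0 and 0 in their lungs. The groups did not overlap between liver and either other tissue. The liver mean was 445 ± 123 (SD, n = 4), at least 37.9-fold the heart and at least 105-fold the lung. The value in the heart of horse 32 rested on 21 reads, while the values of horse 30 in heart and lung rested on 6 reads each, the smallest number the table lists.

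**Figure D1:**
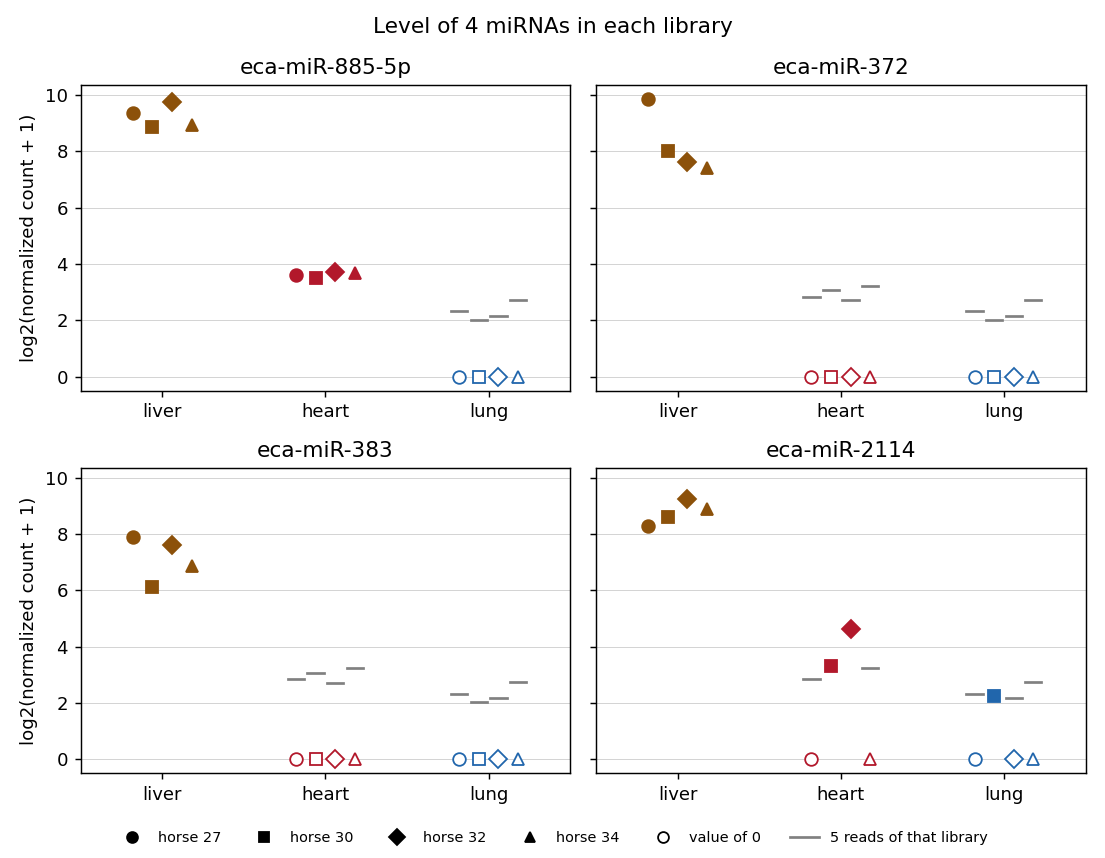
Level of the 4 miRNAs as log2(normalized count + 1) on the y axis, by tissue on the x axis, with 1 panel per miRNA and 1 marker per horse. Open markers are values of 0 and gray bars mark 5 reads in that library. All liver values lie above all others, miR-885-5p lies between 10.4 and 12.3 normalized counts in the 4 hearts, and horse 27 stands apart for miR-372.

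Among the 3 tissues sequenced, miR-372 and miR-383 were detected in liver only at this depth. For miR-885-5p and miR-2114 the pattern was a large difference rather than an absence. The choice of the 4 used these levels, so neither they nor the shares below test a restriction to liver. Other organs were not examined. The share of liver in the sum of the 3 tissue means was 100% for miR-372 and miR-383, 98.2% for miR-885-5p and 98.0% for miR-2114. Known miRNAs entered the fit if 4 or more libraries had a normalized count of 10 or higher, which left 256, and 18 of these had a share of at least 95%. Beside the 4, these were miR-122, miR-215, miR-194 and members of the miR-8908 family. The values just inside and just outside that limit were 98.0% for miR-2114 and 93.3% for miR-31.

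**Figure D2:**
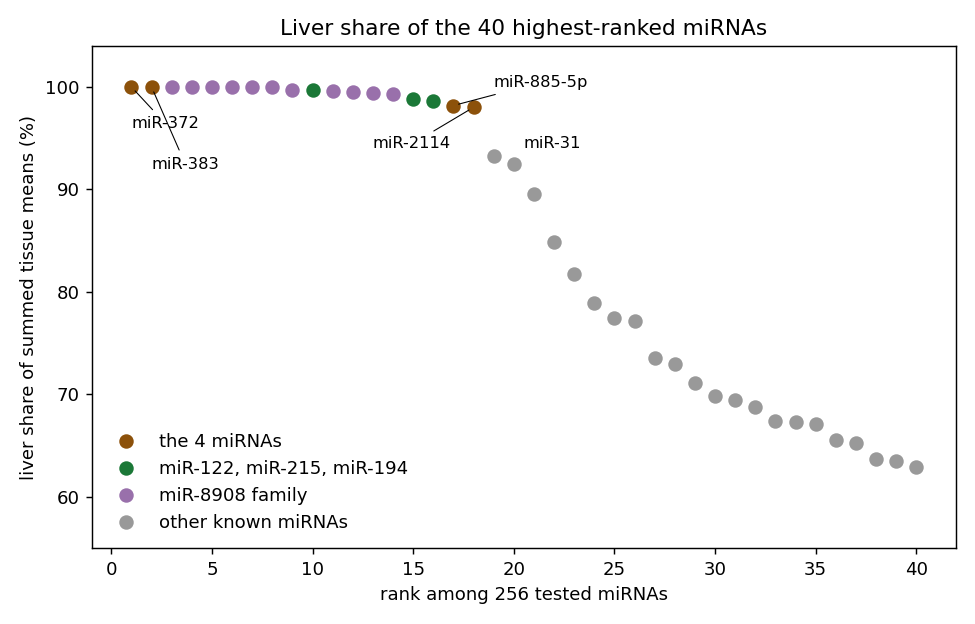
Liver share of the summed tissue means in percent (y axis) for the 40 known miRNAs with the highest share, in order of rank (x axis, of 256). The first 8 are tied at 100%, miR-885-5p and miR-2114 stand at 98.2% and 98.0%, and miR-31 follows at 93.3%.

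All 4 miRNAs passed this filter on low values, and a miRNA high in 4 livers passes it through those libraries alone. In a limma fit over the 256 miRNAs on log2(normalized count + 1), calls required an adjusted p below 0.05 and a log2 fold change of 1 or more in either direction. Of all tested, 27.0% were called higher in liver over heart and 26.6% in liver over lung, and so were all 4, which follows from their choice. The log2 fold changes were 5.60 in liver over heart and 9.23 in liver over lung for miR-885-5p, 8.23 in both for miR-372, 7.12 in both for miR-383, and 6.78 and 8.20 for miR-2114. For miR-2114, liver over heart was 7.66 without the heart of horse 32 and 6.12 without that of horse 27 or of horse 34. Where a group was at 0, these values depend on the pseudocount and are no estimate of size. With a pseudocount of 10 in place of 1, liver over lung was 5.93 for miR-885-5p, 4.95 for miR-372, 3.90 for miR-383 and 5.35 for miR-2114.

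The scale of the values also matters here. The value of a single read was 0.660 to 1.85 normalized counts in liver, 1.12 to 1.68 in heart and 0.618 to 1.13 in lung. Rescaling every library to the same total shifted the median log2 fold change over the 256 miRNAs by 1.13 in liver over heart, -0.12 in liver over lung and -1.18 in heart over lung. Calls in liver over heart were 69 higher and 51 lower as deposited, and 136 higher and 27 lower after rescaling. In liver over lung they were 68 higher and 64 lower, and 65 higher and 69 lower after rescaling. In heart over lung they were 49 higher and 50 lower, and 17 higher and 120 lower after rescaling. On the rescaled values miR-885-5p was 125-fold higher in liver than in heart, and its liver share was 99.2%. TMM scaling, by a trimmed mean of log ratios between libraries, shifted the same medians by 0.14, 0.0055 and -0.087, in the same order. With it, calls were 80 higher and 48 lower in liver over heart, and 68 higher and 65 lower in liver over lung. In heart over lung they were 45 higher and 54 lower.

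Heart against lung was not the contrast that chose these miRNAs, but the choice asked for low levels in both tissues. The tests below therefore use values that the choice had seen, and they are given as description. As deposited, miR-885-5p was listed higher in heart, with 10.4 to 12.3 normalized counts in heart and 0 in every lung. The log2 fold change was 3.63 (SE 0.28, limma adjusted p = 7.62e-07), in a comparison in which 19.1% of the tested miRNAs were called higher in heart. All 4 lungs entered as the same value, so the SE and p hold no spread among lungs and depend on how a 0 is treated. The exact two-sided permutation test of the 4 hearts against the 4 lungs gave p = 0.0286, the smallest it allows. This test did not keep the pairing by horse. On the deposited scale, heart was at least 2.80-fold higher. With the same total per library the log2 fold change was 3.01 (limma adjusted p = 1.47e-05), and with values of 0 set to 5 reads it was 1.31 (adjusted p = 0.00160). The call was lost where both were changed at once, at 0.16 (adjusted p = 0.704). In CPM, reads scaled to the same total in each library, heart had a mean of 0.977 and the limit in lung was 0.888, so with zeros at this limit a difference was not detectable (exact permutation test, p = 0.743).

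miR-2114 averaged 8.10 ± 11.1 normalized counts in heart and 0.927 ± 1.85 in lung (SD, n = 4 each). The log2 fold change of heart over lung was 1.42 (SE 0.99) and did not pass the test (limma adjusted p = 0.260). The groups overlapped, since 2 hearts and 3 lungs were at 0. miR-372 and miR-383, at 0 in both tissues, allow no comparison of heart and lung.

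**Figure D3:**
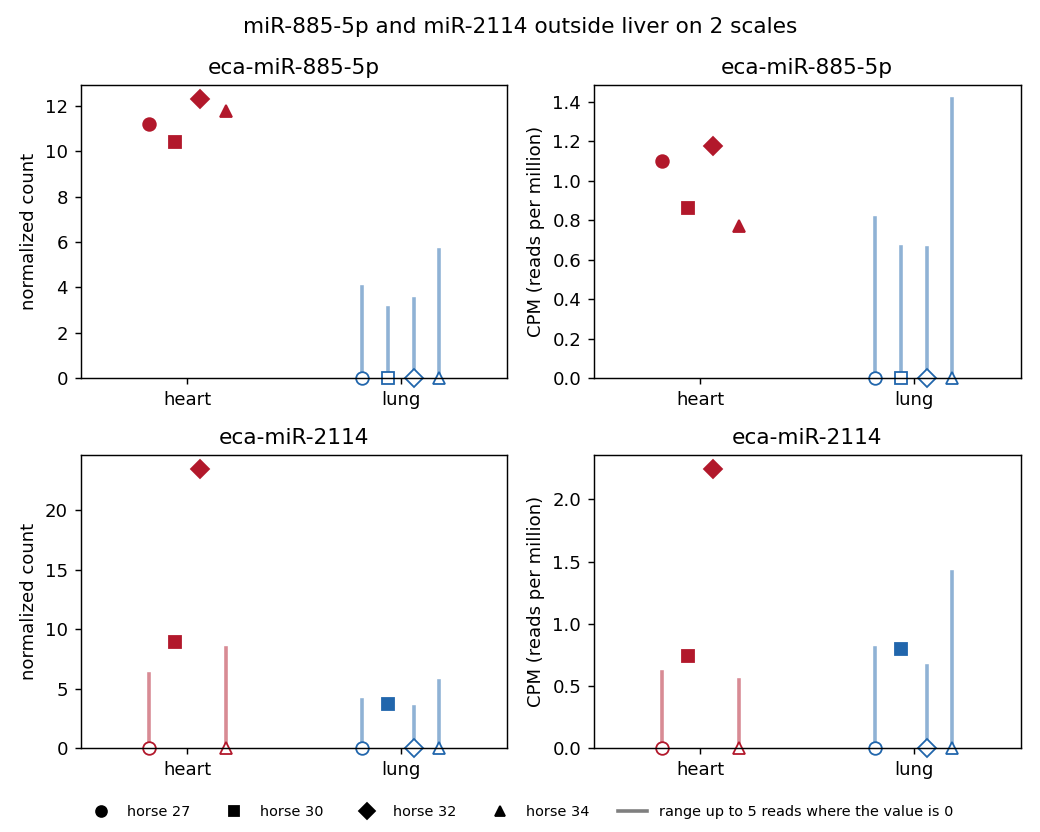
Levels of miR-885-5p (top) and miR-2114 (bottom) in heart and lung, as normalized counts (left) and as CPM (right), with 1 marker per horse. Open markers are values of 0, and vertical lines show the range up to 5 reads. The hearts lie above the lung limits for miR-885-5p on the left, while on the right the limit of 1 lung exceeds all hearts.

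Reads of a liver miRNA in another tissue were set beside those of the abundant hepatocyte miRNAs in the same horses. miR-885-5p in heart amounted to 1.69%, 2.26%, 1.44% and 2.38% of the level in the liver of horses 27, 30, 32 and 34. For miR-122, the most abundant hepatocyte miRNA, the same share was 0.0854%, 0.0706%, 0.112% and 0.267%. It was 0.282 to 0.459% for miR-194 and 0.333 to 0.723% for miR-215, which are also enriched in liver and gut. The other 2 miRNAs of the hepatocyte list had more reads outside liver, with 5.94 to 24.9% for miR-148a and 11.9 to 44.4% for miR-101. In every horse the share of miR-885-5p was thus above that of miR-122, miR-194 and miR-215 and below that of miR-148a and miR-101. The lower side of this order was fixed by the minimum count. At 5 reads, miR-885-5p in heart would already be at 0.941%, 1.61%, 0.653% and 1.70% of liver in horses 27, 30, 32 and 34. In each horse this limit exceeded miR-122, miR-194 and miR-215, so any listed value had to lie above them. miR-2114 in heart amounted to 2.28% of liver in horse 30 and 3.91% in horse 32, between the same miRNAs. Its lower side was fixed in the same way, with limits of 1.90% and 0.932% of liver in these hearts. In the hearts of horses 27 and 34 it was at 0, with limits of 1.99% and 1.76% of liver. In lung, the share was 0.0172 to 0.220% for miR-122, 0.6995 to 1.22% for miR-194, 0.392 to 0.951% for miR-215, 11.5 to 77.5% for miR-148a and 13.8 to 44.7% for miR-101. The limits for miR-885-5p in lung, 0.410 to 1.15% of liver, lay in the range of miR-194 and miR-215. The part of hepatocyte RNA in the heart values was not tested beyond these shares.

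The spread between horses differed among the 4. The coefficient of variation over the livers was 27.7% for miR-2114, 29.3% for miR-885-5p, 48.9% for miR-383 and 93.9% for miR-372. Over the 176 tested miRNAs with a liver mean of at least 100, the median was 23.6%, with quartiles of 17.0% and 34.7%. A larger value than that of miR-372 was found for 6 of them, and than that of miR-383 for 26, whereas miR-885-5p was exceeded by 58 and miR-2114 by 71. Without horse 27, the coefficient of miR-372 was 21.6%.

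The horses did not keep 1 order. Horse 32 was highest for miR-885-5p and miR-2114, and horse 27 for miR-372 and miR-383. Horse 27 was lowest for miR-2114. Horse 32 also had the highest heart values of miR-885-5p and miR-2114. By the means miR-885-5p came first, but in horse 27 it stood at 0.708 times miR-372, against 1.79, 4.40 and 2.91 times in horses 30, 32 and 34. As a ratio within a library, miR-885-5p stood at 2.11, 1.18, 1.43 and 1.04 times miR-2114 in horses 27, 30, 32 and 34, so it was the higher one in all 4, although the ranges over the livers overlapped. The next neighbors in the order of liver means, miR-2114 and miR-372, did not differ beyond their spread, since miR-372 stood at 2.98 times miR-2114 in horse 27 and at 0.324 to 0.656 times in the others. miR-372 stood at 3.97, 3.75 and 1.46 times miR-383 in horses 27, 30 and 34, and in horse 32 they had 265 and 264 reads, so they were not apart in every horse either. Such ratios compare reads, and ligation of adapters may favor 1 sequence over another.

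The hairpin next to miR-372 gave a different picture among the horses. miR-371-5p had 0, 7.24, 14.0 and 31.0 normalized counts in the livers of horses 27, 30, 32 and 34, against 0 in all hearts and lungs. It was thus another miRNA seen in liver only, but too low to pass the filter for testing. Its order was opposite to that of miR-372, which was highest in horse 27 and lowest in horse 34. There were at least 100.8 reads of miR-372 per read of miR-371-5p in horse 27, 35.4 in horse 30, 13.9 in horse 32 and 5.47 in horse 34, on 0, 9, 19 and 47 reads of miR-371-5p. Of the 8 miRNAs listed for pluripotent cells, miR-371-5p was the only one with an entry in the table, and miR-302a to miR-302d, miR-367, miR-371-3p and miR-373 were not analysed here.

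The entry aAAGUGCUuucauuuuguguguc shared the high value of horse 27 with miR-372. It had 75.8, 8.85, 6.61 and 14.5 normalized counts in the livers of horses 27, 30, 32 and 34, on 41, 11, 9 and 22 reads. In the other 3 horses its order differed from that of miR-372, with horse 34 highest. The entry cUGCCCUGgacugugccugcagg was lowest in horse 27, at 70.3, and highest in horse 30, at 122. The remaining entries were not led by horse 27 in common: uGGAGUGUgacaguggugc and uGGGGAGUgacaaugguguu were highest there, at 61.0 and 598, and uGGCCUGGgaaaacgaauccua was highest in horse 34, at 33.7.

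**Figure D4:**
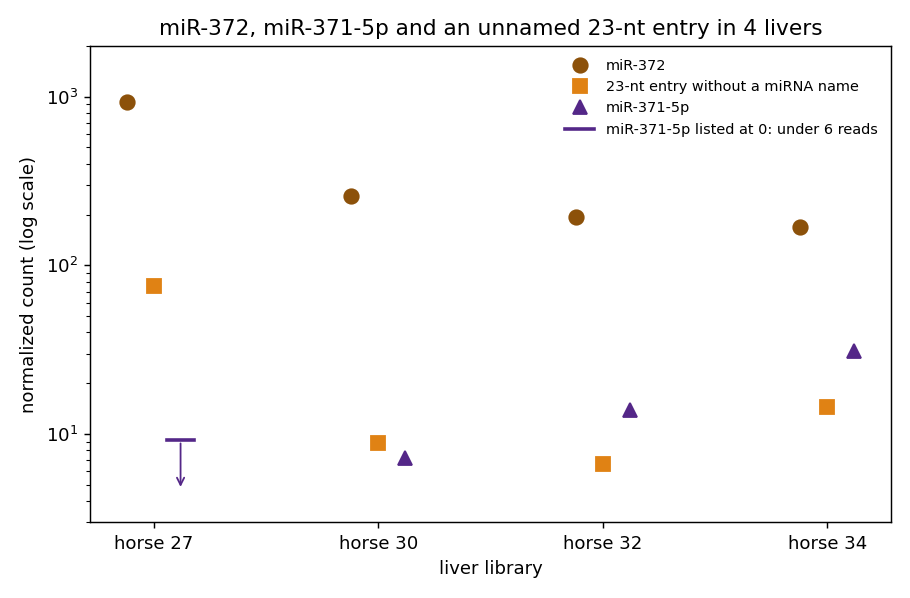
Normalized counts on a log scale (y axis) of miR-372, miR-371-5p and the entry of 23 nt that was highest in horse 27, in the liver library of each horse (x axis). The bar with an arrow is the limit of 5 reads for miR-371-5p, listed at 0 in horse 27. miR-372 is highest in horse 27, at 932, and lowest in horse 34, at 169.7, where miR-371-5p is highest, at 31.0.

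The tested known miRNAs outside the 4 with the most similar pattern were found by Pearson's r of log2(normalized count + 1) over the 12 libraries. These values are descriptive, since all pairs share the libraries and the contrast of liver with the rest, and zeros in 8 libraries raise them. For miR-885-5p they were miR-3958 (r = 0.964), miR-494 (0.945) and miR-323-5p (0.943), none of which was confined to liver. miR-3958 averaged 605 normalized counts in liver, 236 in heart and 86.1 in lung. For miR-372 they were miR-8908m (0.987), miR-8908d (0.984) and miR-8908h (0.983), all at 0 outside liver. For miR-383 they were the hepatocyte miRNAs miR-215 (0.981), miR-194 (0.978) and miR-122 (0.977). For miR-2114 they were miR-483, which in humans is encoded in an intron of IGF2 (0.954), miR-8908h (0.917) and miR-215 (0.916). The 4 were left out of that ranking. Among them, the pair most alike was miR-372 and miR-383 (0.991), closer than the 3 named for either, and miR-2114 and miR-383 reached 0.9196. The order of likeness depends on the measure: by Spearman's rho, with ties counted in, 2, 2, 0 and 1 of these 3 neighbors stayed among the closest 3 for miR-885-5p, miR-372, miR-383 and miR-2114.

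Markers of other cells in the livers were read as well. The 2 red blood cell miRNAs with an entry summed to 4150 to 6888 in liver, 66906 to 160133 in heart and 25239 to 66840 in lung. The 3 leukocyte miRNAs with an entry summed to 1411 to 5837 in liver, 4517 to 6865 in heart and 9185 to 25387 in lung. The 3 neural and endocrine miRNAs with an entry summed to 3071 to 5994 in liver, 2305 to 8682 in heart and 3345 to 7258 in lung, and miR-153 was at 0 in all livers and hearts. None of these sums was highest in liver, but single members differed from the sums and not every listed miRNA had an entry. The part of these cells in the levels of the 4 miRNAs was not tested.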

How the data were processed

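MiRNA libraries of liver, heart and lung of 4 horses were analysed. By the study's methods, reads were trimmed with Trim Galore and counted with sRNAbench against miRBase at a minimum count of 6, while the submitters' processing notes name Trimmomatic and BWA. The deposited values are a signal, counts that the authors normalized with DESeq2 size factors. The authors' own comparison of liver with lung (log2 fold change, statistic and p-value) was not used. The step of a library was its lowest value above 0 divided by 6, and all values (100%) were whole multiples of it within 0.01.

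Known miRNAs with a normalized count of 10 or higher in 4 or more of the 12 libraries (256) were fitted with limma 3.58.1 (R 4.3.3, variance trend, 1 mean per tissue) on log2(normalized count + 1), with Benjamini-Hochberg adjustment. Single values were compared by an exact two-sided permutation test without pairing by horse (scipy 1.17.1). Python 3.11.15 with numpy 2.4.6, pandas 2.3.3 and matplotlib 3.10.9 did the rest. The fit was tested on simulated data.

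The 4 miRNAs and the marker lists were chosen with earlier results of these data known. Also named were miR-371-5p and other miRNAs of pluripotent cells, hepatocyte miRNAs and the 3 miRNAs with the highest r to each of the 4. The entries named by sequence, miR-31, miR-208a, miR-208b and the miR-8908 family were named after their values were seen. Other hairpin arms and mature sequences of the 4 were not analysed here.

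The horse number pairs the samples, since it is the same animal. Deviations from tissue means correlated at -0.27 to 0.15 for 12 pairs of the same horse and at -0.27 to 0.36 for 36 pairs of different horses. Alternatives were other pseudocounts, filters and scalings, all 629 entries, a block for the horse, each horse or library left out, and, chosen after seeing the data, values of 0 set to 5 reads and liver means and folds without each liver.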

Additional observations from a re-analysis of the deposited data

Results flagged for a closer look

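miR-372 in the liver of horse 27, at 932 normalized counts, lay far from the other 3 livers (169.7 to 257). The entry aAAGUGCUuucauuuuguguguc was flagged in the same library, at 75.8 normalized counts against 6.61 to 14.5 in the other livers. Chance flags about 1 in 20 groups, and 15 of the 256 tested miRNAs had 1 liver library apart in this way, which was highest in horse 27 for 2 of them, in horse 32 for 5 and in horse 34 for 5. miR-2114 in the lung of horse 30 was flagged at 3.71 normalized counts, since the other 3 lungs were at 0, but this value is 6 reads.

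The 5 entries named by sequence alone, which entered no test, had signal in all 4 livers and 0 in heart and lung. Their liver means were 26.5 for aAAGUGCUuucauuuuguguguc, 96.4 for cUGCCCUGgacugugccugcagg, 45.6 for uGGAGUGUgacaguggugc, 19.1 for uGGCCUGGgaaaacgaauccua and 497 for uGGGGAGUgacaaugguguu.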

How the results depend on the processing

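Counts of calls were judged by the sum of both directions, within 1.5 times. With the same total per library the split by direction changed by more. In heart over lung it went from 49 to 17 higher and from 50 to 120 lower. In liver over heart it went from 69 to 136 higher and from 51 to 27 lower. Values of miR-885-5p in heart over lung were judged by their direction and side of the threshold. Under the alternatives, 107 of these counts and values held and 1 did not. This was the log2 fold change of miR-885-5p in heart over lung, at 0.16 (adjusted p = 0.704) with values of 0 set to 5 reads and the same total per library. It was 1.10 (limma adjusted p = 0.00140) with a pseudocount of 10 and 4.57 with 0.5. It was 3.01 with the same total alone, 3.68 with TMM scaling and 3.60 to 3.67 with 1 horse left out. With the horse as a replicate block it was 3.63 (limma adjusted p = 2.90e-05), and the block gave 116, 131 and 97 calls in liver over heart, liver over lung and heart over lung, against 120, 132 and 99 without it. The block kept the call of miR-885-5p in heart over lung. Leaving out each horse in turn gave 84 to 103, 99 to 108 and 80 to 93 calls. Of the other values of single miRNAs, 184 held, 34 moved and none changed sign. Levels, fold changes and liver shares were judged by the spread between horses, and coefficients of variation by a factor of 1.5. Likeness was judged by whether all 3 neighbors stayed. With a liver left out, miR-372 and miR-383 no longer passed the filter on low values and gave no value. Tests on reads were not run. Depth limits what can be said outside liver, where 5 reads stand for 5.59 to 8.41 normalized counts in heart and 3.09 to 5.66 in lung.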
